A study of Homo sapiens with 24 samples.

Results

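The aryl hydrocarbon receptor (AHR) pathway was described here through 9 genes, chosen by symbol: AHR, ARNT, AHRR, TIPARP, CYP1A1, CYP1B1, ALDH3A1, UGT1A6 and POR. Their Ensembl identifiers were looked up in the deposited table of expected counts, and all 9 of 9 were found among its 60675 genes. RNA had been sequenced from SW1783, an established human astrocytoma cell line, 24 h after treatment with an extract of Schisandrae Fructus, the dried fruit of Schisandra. Batch A held the water extract (WESF) at 20, 100 and 500 μg/mL (low, medium and high dose) with its own vehicle group, vehicle A. Batch B held the ethanol extract (EESF) at 12.4, 62 and 310 μg/mL with vehicle B, and both vehicles were 0.1% DMSO. The study set its high doses from an earlier test of toxicity. That of EESF lay near a partly inhibitory concentration, and no toxic effect was reported at that of WESF. Each of the 8 groups had 3 libraries, 24 in all. Since each extract was run in its own batch and at its own doses, extract, dose and batch cannot be told apart, and each dose was set against the vehicle of its batch. No label states that the libraries of a group came from separate cultures, so p-values measure only the spread between these libraries, which may be technical.

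AHR is a transcription factor of the bHLH-PAS family that waits in the cytosol with HSP90 and the co-chaperone p23 until a ligand binds it. Many ligands are planar aromatic molecules, among them dioxins, plant flavonoids and breakdown products of tryptophan. In the nucleus AHR pairs with ARNT and binds DNA at the xenobiotic response element, whose core is GCGTG. Its best known targets are enzymes of drug metabolism (CYP1A1, CYP1B1, ALDH3A1 and UGT1A6), and AHRR and TIPARP are targets that feed back to repress it. POR, cytochrome P450 oxidoreductase, hands electrons to the P450 enzymes of the endoplasmic reticulum.

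Depth, the sum of expected counts in a library, ran from 18727797 to 32567395. The vehicle B libraries were the shallowest (18727797 to 20465712). The group with the highest median was the high dose of EESF (31255297, from 29659110 to 32567395). Low WESF replicate 2, at 30288310, lay within that range. Levels are given below as CPM, counts scaled to a common library size by the TMM method, and changes as log2 fold changes ± SE from edgeR's quasi-likelihood test with Benjamini-Hochberg adjustment over all genes tested. A gene was called at an adjusted p under 0.05, and was termed a DEG, after the study's thresholds, if its fold change was also beyond 1.5. CPM is a share of the library, and in bulk RNA fewer cells expressing a gene and less of its RNA per cell cannot be told apart.

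Of the astroglial markers examined, 5 of 11 were high enough to be tested. VIM, the intermediate filament vimentin, had 4699 ± 28.8 CPM in vehicle A (SD, n = 3), the cell surface glycoprotein CD44 2765 ± 120.7, the transcription factor SOX9 79.6 ± 4.64, SLC1A3 31 ± 1.7 and the filament NES 7.11 ± 0.85. GFAP, a filament of astrocytes, had 0 to 10 counts in a library, S100B 0 to 4, ALDH1L1 0 to 4, SOX2 0 to 2, and AQP4 and FABP7 0 to 1. The markers were thus mixed, with VIM, CD44, SOX9, SLC1A3 and NES expressed and GFAP, S100B, ALDH1L1, SOX2, AQP4 and FABP7 at or near 0. The cells are called by the name of the line. At both high doses 4 of the 5 tested markers fell, beside 31.9% of all genes tested with WESF and 26.5% with EESF. SLC1A3, a glutamate transporter, changed by -1.62 ± 0.069 with WESF and -1.40 ± 0.0702 with EESF (adjusted p = 6.68e-11 and 5.74e-08). It and SOX9 were also called downward at both medium doses, 2 of 5 beside 2.71% and 12.5% of all genes called, and CD44 and NES fell less with EESF than with WESF, by 0.23 and 0.75 (adjusted p = 0.0134 and 0.0175). The summed level of the 11 markers was 7582 ± 101.1 CPM in vehicle A and 6403 ± 156.4 with high WESF, and 7754 ± 145.2 in vehicle B and 7156 ± 115.5 with high EESF (SD, n = 3 each). The 8 markers of other cell types summed to 194.4 ± 6.68, 232 ± 16.9, 213.2 ± 13 and 272.8 ± 5.21 CPM in the same groups, most of it CD68, a lysosomal protein of macrophages and many cultured cells, which rose by 0.30 ± 0.053 and 0.41 ± 0.0549. PTPRC, the leukocyte antigen CD45, fell by 2.25 and 2.39 from 9.91 and 9.58 CPM, MBP of myelin rose by 0.89 and 0.54, and EPCAM, CDH1 and ALB stayed at 0 to 5 counts. RBFOX3, a neuronal splicing factor with 1 to 21 counts in a library, had 0.109 ± 0.0364 CPM in vehicle A and 0.689 ± 0.159 with high WESF, and 0.135 ± 0.074 and 0.543 ± 0.174 in batch B. Among the doses set against a vehicle it passed the filter on low counts with high WESF alone, where that group was high, so no test is read from it. The part of these shifts in the results below was not tested.

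In the vehicle libraries the 9 genes formed an upper and a lower tier. Per kilobase of exonic length, the mean level over the 6 vehicle libraries was 20.7 CPM/kb for CYP1B1, 13.7 for POR, 10.5 for AHR, 9.38 for TIPARP, 8.44 for ARNT and 4.35 for AHRR. The library ranges of CYP1B1 (18.5 to 22.3 CPM/kb) and POR (13.2 to 14) stood clear of each other and of the rest. Those of AHR (8.92 to 11.7), TIPARP (9.11 to 9.92) and ARNT (7.8 to 9.19) overlapped. Below them lay CYP1A1 at 0.291 CPM/kb, ALDH3A1 at 0.233 and UGT1A6 at 0.0205, where the ranges of CYP1A1 (0.178 to 0.351) and ALDH3A1 (0.128 to 0.309) overlapped. Thus CYP1B1 RNA was abundant in these cells without any extract while CYP1A1 RNA, from its sister gene, had 12 to 33 counts in a vehicle library. In every comparison 8 of the genes were tested, and UGT1A6, with 0 to 7.9 counts in a library, was too low in each.

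**Figure D1:**
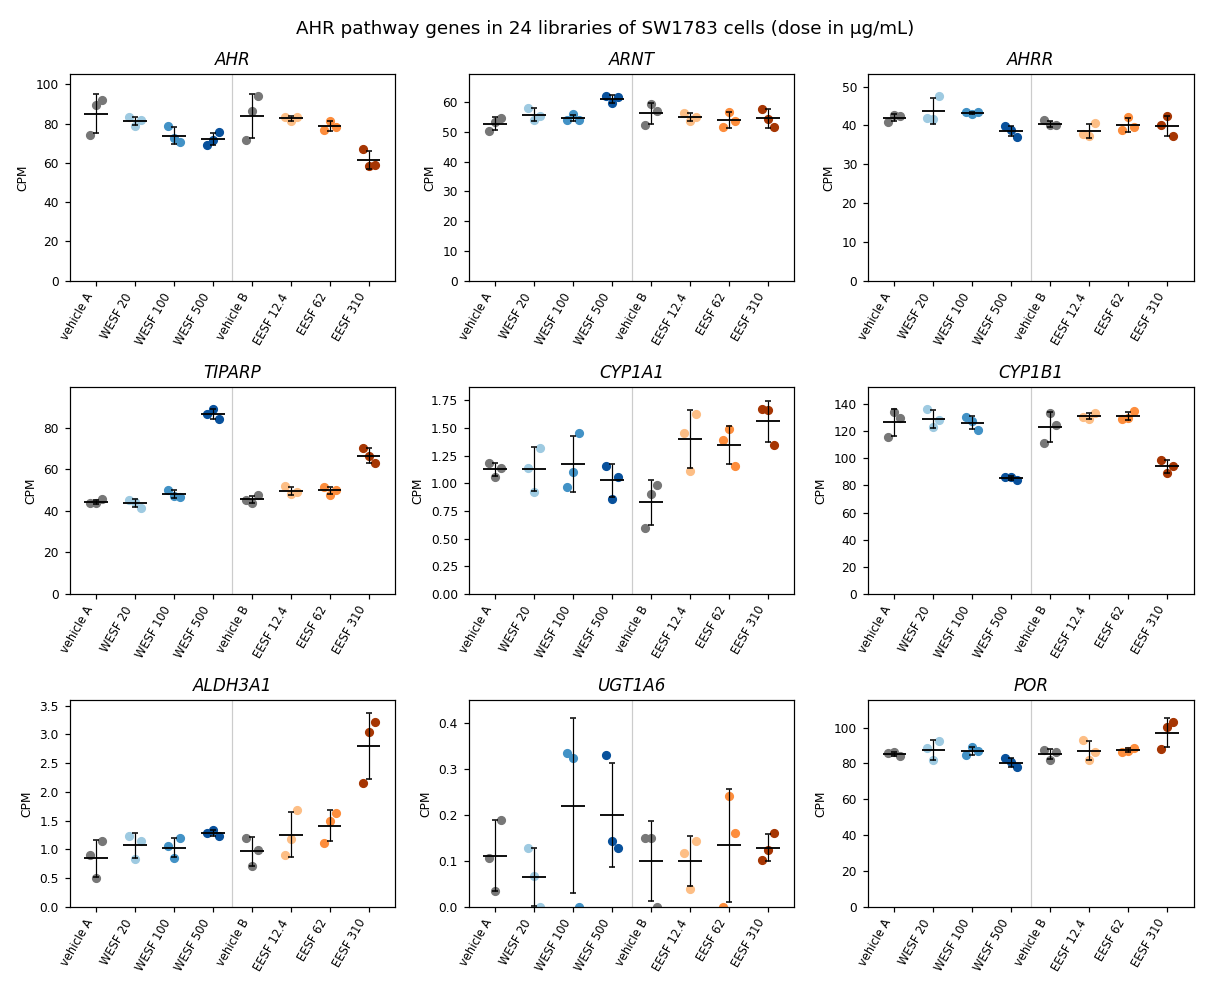
Level of the 9 genes in CPM (linear axes from 0, a scale for each gene) in each of the 24 libraries, by group, with the dose in μg/mL; points are libraries, horizontal bars means and error bars SDs (n = 3). TIPARP stands at 84.1 to 89 CPM with 500 μg/mL WESF against 43.7 to 45.6 in vehicle A, CYP1B1 is lowest at both high doses, and ALDH3A1 reaches 2.15 to 3.21 CPM with 310 μg/mL EESF.

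At the high dose of WESF, 5 of the 8 tested genes were called, beside 63.5% of all 16030 genes tested. TIPARP and ARNT rose (2 of 8, beside 31.6% of all genes) and AHR, AHRR and CYP1B1 fell (3 of 8, beside 31.9%). TIPARP was the 1 DEG among them, where 25.6% of all genes were DEGs. The members' share was thus near the background, and the median change of the 8 was -0.10, against 0.00 for all genes. At the high dose of EESF, 6 of 8 were called, beside 52.5% of 15973 genes. ALDH3A1, CYP1A1, TIPARP and POR rose (4 of 8, beside 26% of all genes), and AHR and CYP1B1 fell (2 of 8, beside 26.5%). ALDH3A1 and CYP1A1 were the 2 DEGs, beside 18.4% of all genes, and the median change of the 8 was 0.09 against 0.00.

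**Figure D2:**
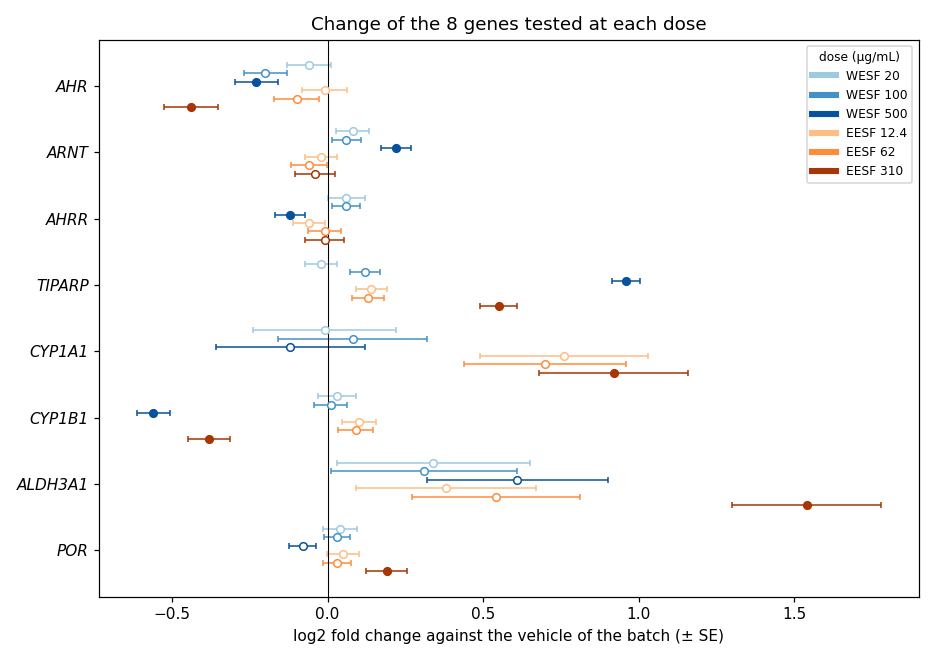
Log2 fold change (x axis, ± SE) of the 8 tested genes at each of the 6 doses against the vehicle of the batch, 3 libraries a group. Filled points passed an adjusted p under 0.05 and open points did not; all filled points belong to the 2 high doses, with TIPARP at 0.96 and 0.55 and CYP1B1 at -0.56 and -0.38.

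Of the receptor and its partner, AHR (ENSG00000106546, chr7:16916359-17346152, plus strand, GRCh38) fell with both extracts, free of overlap with EESF only. It stood at 74, 89.6 and 91.8 CPM in the 3 libraries of vehicle A, and at 69.3, 71.9 and 75.6 with high WESF. The groups overlapped, since the first vehicle library lay under the highest treated one, and the fitted change was -0.23 ± 0.0694 (adjusted p = 0.00859). With high EESF it fell from 71.8, 86.5 and 93.9 CPM in vehicle B to 67, 58.6 and 59.1. Here every treated library was below every vehicle library, with a change of -0.44 ± 0.0875 (adjusted p = 0.00112). The first library was the lowest AHR value of both vehicle groups, and it was also the lowest for CYP1B1 in both.

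The medium doses left AHR at 78.6, 72.6 and 70.4 CPM with WESF (-0.20 ± 0.0696, adjusted p = 0.147) and at 76.7, 81.3 and 78.2 with EESF (-0.10 ± 0.0722, adjusted p = 0.426). Without vehicle A replicate 1 the medium dose of WESF gave -0.28 with an adjusted p of 0.00485, and without vehicle B replicate 1 that of EESF gave -0.19 with 0.0226. The AHR gene as annotated spans an upstream region and shares 2373 exonic bases with a second gene model that is not used here.

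ARNT (ENSG00000143437, chr1:150809713-150876708, minus strand), the dimer partner that also serves the hypoxia factors, moved with WESF. Its libraries held 50.3, 53.4 and 54.5 CPM in vehicle A and 61.9, 59.5 and 61.8 at the high dose, without overlap. The rise was 0.22 ± 0.0471 (fold 1.16, adjusted p = 0.000933). With EESF the 52.3, 59.3 and 56.9 CPM of vehicle B overlapped the 57.6, 54.3 and 51.5 of the high dose (-0.04 ± 0.0644, adjusted p = 0.638).

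The feedback repressors did not move together. TIPARP (ENSG00000163659, chr3:156673235-156706770, plus strand) encodes a mono-ADP-ribosyltransferase that modifies AHR. It had 43.7, 44 and 45.6 CPM in vehicle A and 86.5, 89 and 84.1 with high WESF. All treated libraries stood well above all vehicle libraries, a rise of 0.96 ± 0.0453 (fold 1.95, adjusted p = 1.74e-10). With high EESF it went from 45.1, 44 and 47.6 to 70.3, 66.5 and 63.2 CPM, again without overlap (0.55 ± 0.0603, fold 1.47, adjusted p = 1.36e-05). AHRR (ENSG00000063438, chr5:321714-438291, plus strand), which competes with AHR for ARNT, had 40.9, 42.6 and 42.5 CPM in vehicle A and 39.8, 38.7 and 37.1 with high WESF. That change of -0.12 ± 0.0486 lay just within the threshold (adjusted p = 0.0427), and 8 of 12 alternative settings put it outside. In batch B, AHRR had 41.3, 40 and 40 CPM in the vehicle and 40.1, 42.4 and 37.3 at the high dose, which overlapped (-0.01 ± 0.0636, adjusted p = 0.877). Its exons share 5561 bases with a readthrough gene, PDCD6-AHRR, that is not used here.

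CYP1B1 (ENSG00000138061, chr2:38066973-38109902, minus strand) oxidises estradiol and polycyclic hydrocarbons. It had the highest CPM and CPM/kb of the 9 genes in the vehicle libraries. Per kilobase of exonic length it was below TIPARP at the high dose of WESF, with 14.2 ± 0.225 CPM/kb beside 18 ± 0.507, and level with POR at that of EESF, with 15.6 ± 0.802 beside 15.6 ± 1.3 (SD, n = 3). Its 115.7, 134.3 and 129.5 CPM in vehicle A compared with 86.2, 86.1 and 83.8 at the high dose of WESF. The treated libraries were all lower, and the change was -0.56 ± 0.054 (fold 0.676, adjusted p = 3.26e-07). In batch B the vehicle libraries had 111.5, 133.4 and 124.4 CPM and those of the high dose 98.8, 89.1 and 94.2. The fall was again free of overlap, at -0.38 ± 0.0674 (fold 0.766, adjusted p = 0.000501). An antisense gene, CYP1B1-AS1, overlaps 678 of its exonic bases and had 6.14 to 15.2 counts in a library, against 1801.84 to 3796.58 for CYP1B1.

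CYP1A1 (ENSG00000140465, chr15:74719542-74725536, minus strand), the enzyme whose induction is the usual readout of AHR activity, moved the other way from CYP1B1 with EESF. The vehicle B libraries held 0.599, 0.902 and 0.985 CPM and the high dose 1.67, 1.66 and 1.35. Every treated library was above every vehicle library, a rise of 0.92 ± 0.24 (fold 1.89, adjusted p = 0.00739). These levels rested on 12, 18 and 18 counts against 49, 54 and 42. A count of 12 has an exact 95% Poisson interval of 6.2 to 21 and a count of 18 one of 10.7 to 28.4, which cover counting error only. Vehicle A held 1.18, 1.06 and 1.14 CPM, all above vehicle B, a difference of -0.45 ± 0.25 for vehicle B against vehicle A (unadjusted p = 0.096, adjusted p = 1). With high WESF the libraries had 1.16, 0.86 and 1.06 CPM, which overlapped vehicle A (-0.12 ± 0.24, adjusted p = 0.669).

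The lower doses of EESF gave CYP1A1 levels that overlapped those of the high one. They were 1.46, 1.11 and 1.63 CPM at the low dose (0.76 ± 0.27, adjusted p = 0.103) and 1.39, 1.49 and 1.16 at the medium dose (0.70 ± 0.26, adjusted p = 0.096). All of these libraries were above vehicle B, but neither change passed the test. High against medium EESF gave 0.22 ± 0.20 (adjusted p = 0.402), with overlapping libraries.

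ALDH3A1 (ENSG00000108602, chr17:19737984-19748943, minus strand), an aldehyde dehydrogenase long known as an AHR target, had the largest change of the 8 tested genes in any dose comparison. It went from 1.2, 0.702 and 0.985 CPM in vehicle B to 2.15, 3.04 and 3.21 with high EESF, where it had 63, 99 and 100 counts. The groups were well apart, with a rise of 1.54 ± 0.24 (fold 2.92, adjusted p = 0.000217). At the medium dose it had 1.11, 1.49 and 1.64 CPM and overlapped the vehicle (0.54 ± 0.27, adjusted p = 0.209). With high WESF the 1.28, 1.34 and 1.23 CPM were above the 0.894, 0.495 and 1.14 of vehicle A, but 0.61 ± 0.29 did not pass (adjusted p = 0.0732). Leaving out vehicle A replicate 3 gave 0.88 and an adjusted p of 0.0264, while leaving out vehicle A replicate 2, the lowest library, gave 0.33.

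UGT1A6 (ENSG00000167165, chr2:233691607-233773300, plus strand) glucuronidates small phenols. Its group means lay between 0.0643 CPM (low WESF) and 0.22 CPM (medium WESF), and 4 libraries of 4 different groups had 0 counts, which allows up to 0.104 to 0.16 CPM in them (3 counts of the library total). Every neighbouring pair of groups in that order overlapped, and no change was detectable at this depth. UGT1A6 shares its last exons, at least 1479 bases, with the other UGT1A genes, between which RSEM divides the reads. Most UGT1A reads were given to UGT1A7 (72.05 to 199.34 counts) and UGT1A8 (23.61 to 97.68). The 7 listed UGT1A genes together summed to 7.62 ± 0.77 CPM in vehicle A and 6.93 ± 0.996 with high WESF, and to 7.74 ± 0.265 in vehicle B and 8.24 ± 0.818 with high EESF (SD, n = 3). The UGT1A8 part changed by -0.90 ± 0.23 with high WESF (adjusted p = 0.00317), and UGT1A7 by 0.19 (adjusted p = 0.288). With high EESF they changed by -0.46 and 0.27 (adjusted p = 0.108 and 0.188). The extracts were not shown to differ for UGT1A8 (0.45, adjusted p = 0.387). The part of the division of reads in these values was not tested.

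POR (ENSG00000127948, chr7:75899200-75986855, plus strand) had small changes. Vehicle A had 85.6, 86.2 and 84 CPM and high WESF 82.8, 80.6 and 77.8, lower in each library but not past the threshold (-0.08 ± 0.0433, adjusted p = 0.109). In batch B it went from 87.4, 82 and 86.6 to 87.8, 100.3 and 102.9 CPM. The lowest treated library only just cleared the highest vehicle one, and the change was 0.19 ± 0.0652 (fold 1.14, adjusted p = 0.0278). In 5 of 12 alternative settings that rise missed the threshold, with adjusted p between 0.064 and 0.143.

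Sequence upstream of the gene start is shown for TIPARP and CYP1A1, the 2 genes whose change differed between the extracts and whose window in the RefSeq table (GRCh38.p14) held the motif. The 250 bases before the start are given 5′ to 3′ on the gene's strand, with each GCGTG, or its reverse complement CACGC, in capitals. The TIPARP window is chr3:156674340-156674589 on the plus strand and the CYP1A1 window chr15:74725529-74725778 on the minus strand. RefSeq's starts differ from those of the GENCODE gene spans given above, so that the TIPARP window lies inside the annotated gene, partly over an exon of the antisense gene TIPARP-AS1, and the last bases of the CYP1A1 window fall in its first annotated exon.
TIPARP: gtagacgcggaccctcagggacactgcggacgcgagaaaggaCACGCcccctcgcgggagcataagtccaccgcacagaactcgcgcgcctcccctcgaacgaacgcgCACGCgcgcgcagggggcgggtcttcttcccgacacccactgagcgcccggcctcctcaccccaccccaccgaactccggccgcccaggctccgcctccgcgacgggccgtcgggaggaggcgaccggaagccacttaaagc
CYP1A1: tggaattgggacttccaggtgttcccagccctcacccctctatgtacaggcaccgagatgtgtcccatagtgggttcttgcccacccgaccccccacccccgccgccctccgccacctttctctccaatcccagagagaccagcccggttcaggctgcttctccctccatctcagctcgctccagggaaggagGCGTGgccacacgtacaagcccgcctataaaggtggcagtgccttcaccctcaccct
GCGTG was searched on both strands. TIPARP held 2 copies, CYP1A1, AHRR and UGT1A6 held 1 each, and AHR and ARNT held 0, while CYP1B1, ALDH3A1 and POR were not analysed here. The motif is common: 31.9% of the 27305 gene windows of this length held it. The longer form TNGCGTG, which overlaps it, was in 4.5% of windows, among them those of AHRR and UGT1A6. It was absent from the TIPARP and CYP1A1 windows shown here. A match is a description of the letters and says nothing of binding, and the enhancer of CYP1A1 is known to lie further upstream than this window.

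Below the high doses the test called no change of the 8 genes. At the medium dose of WESF 0 of 8 were called, beside 2.71% of all genes. There 2 of 8 had an unadjusted p under 0.05 (AHR and TIPARP), beside 2987 of all 15968 genes tested. At its low dose edgeR called 0 of 8, beside 0% of all genes. An unadjusted p under 0.05 was found there for 0 of 8, beside 551 of 16081 genes. For EESF the medium dose called 0 of 8, beside 12.5% of all genes, and the low dose 0 of 8, beside 7.15%. Unadjusted, 2 of 8 passed at each (TIPARP and CYP1A1), beside 4347 of 15685 genes at the medium and 3758 of 15462 at the low dose. The unadjusted shares of the members were thus near those of all genes. DESeq2 called 0 members at each of these 4 doses. TIPARP had 50.1, 47.4 and 46.9 CPM at medium WESF (0.12 ± 0.047), 51.6, 47.9 and 50.1 at medium EESF (0.13 ± 0.0524) and 52, 48.3 and 49.1 at low EESF (0.14 ± 0.0502), all above their vehicle libraries, with adjusted p of 0.172, 0.125 and 0.101. CYP1B1 overlapped its vehicle libraries at these 4 doses, with changes between 0.01 and 0.10 on the log2 scale.

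The step from the medium to the high dose, which does not use the vehicle libraries, gave 5 of 8 called for WESF, beside 61.6% of all genes. TIPARP changed by 0.85 ± 0.042, ARNT by 0.16 ± 0.0397, CYP1B1 by -0.56 ± 0.0399, AHRR by -0.17 ± 0.0446 and POR by -0.11 ± 0.0401, with adjusted p between 6.74e-11 and 0.0254. The call of POR was lost under DESeq2 (adjusted p = 0.0585) and without WESF medium replicate 2 (0.0709) or WESF high replicate 3 (0.13). AHR, in contrast, differed by -0.03 ± 0.0479 between medium and high WESF (adjusted p = 0.61). For EESF the step called 4 of 8, beside 44.6% of all genes. ALDH3A1 rose by 1.00 ± 0.21 and TIPARP by 0.42 ± 0.0563, and AHR changed by -0.35 ± 0.0593 and CYP1B1 by -0.48 ± 0.051 (adjusted p = 0.00184, 6.43e-05, 0.000398 and 1.13e-05). POR gave 0.16 ± 0.0606 with an adjusted p of 0.0525, and 0.0336 with the replicate number as a block. Same-numbered libraries of this step deviated together only weakly (r = 0.101, 0.299 and 0.258). POR also passed without the filter on low counts (adjusted p = 0.0194) and with protein-coding genes only (0.041). Without EESF high replicate 1 it gave 0.22 (adjusted p = 0.000763).

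Whether a gene answered differently to the 2 extracts was tested as an interaction over the 12 libraries of the high doses and their vehicles (EESF change less WESF change). Of the 8 genes 4 passed, beside 21.2% of all 16653 genes. TIPARP rose less with EESF than with WESF, a difference of -0.40 ± 0.0698 (adjusted p = 0.00125), and this held in all 17 alternative settings. CYP1A1 differed by 1.05 ± 0.31 (adjusted p = 0.027), POR by 0.28 ± 0.0791 (0.0204) and ARNT by -0.25 ± 0.0774 (0.0323), and these were lost in 6, 5 and 10 of the 17 settings. With the replicate number as a block TIPARP alone was called, although same-numbered libraries of a high dose and its vehicle did not deviate together. The block was set within each batch. It did not take in the deviations that same-numbered libraries of the 2 vehicle groups shared, and the test took all 12 libraries as independent. The part of those shared deviations in these p-values was not tested. For ALDH3A1 the difference was 0.94 ± 0.39 (adjusted p = 0.103), for CYP1B1 0.19 ± 0.0907 (0.157), for AHR -0.20 ± 0.13 (0.273) and for AHRR 0.11 ± 0.0754 (0.307). With all libraries those 4 were not shown to differ, nor do these p-values show that the extracts act alike on them. The ALDH3A1 difference was called in 2 of the 17 settings. These were without vehicle A replicate 2 (1.21, adjusted p = 0.0332) and without EESF high replicate 1 (1.09, adjusted p = 0.0465). Between the vehicles 0 of 8 genes were called by edgeR, beside 0% of all 15728 genes (485 had an unadjusted p under 0.05, and DESeq2 called 4). Same-numbered vehicle libraries deviated together, and with the replicate block 374 genes were called, with 0 of the 8 among them.

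Genes whose pattern was most like that of 4 members were sought over the 18 treated libraries, as log2 CPM less the mean of the batch's vehicle, among 12784 protein-coding genes. The coefficients are Pearson's r, and describe these libraries only, which share batches and vehicles and in which most genes moved at the high doses. Nearest to TIPARP were MAD2L1 of the spindle checkpoint, the splicing factor SRSF3 and TFPI, an inhibitor of coagulation (r = 0.99 each). CYP1B1 went with SNAP25, a SNARE protein of vesicle fusion, NETO2, a partner of kainate receptors, and the tetraspanin TSPAN10 (r = 0.99 each), which changed by -1.67, -1.16 and -1.79 with high WESF and -1.12, -0.83 and -1.28 with high EESF. AHR was nearest to C21orf91, the potassium channel KCNJ15 and ZNF436 (r = 0.92 each), and POR was close to GTPBP6 (0.91) and PPP1R12C (0.86).

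The rest of the pathway was followed in lists of genes, described by counts, which are to be read beside the 63.5% of all genes called with high WESF (31.6% up, 31.9% down) and the 52.5% with high EESF (26% up, 26.5% down). Of 10 partners of AHR, all tested, 6 rose and 2 fell with high WESF (median 0.18), and 4 rose and 3 fell with high EESF (median 0.03). That is 8 of 10 called beside 63.5% and 7 of 10 beside 52.5%. The chaperones that hold the receptor rose with both. HSP90AA1 went from 1126 ± 23.3 to 1436 ± 88.2 CPM with WESF and from 1114 ± 18.7 to 1452 ± 119.2 with EESF (SD, n = 3), changes of 0.35 ± 0.0474 and 0.39 ± 0.0582 (adjusted p = 1.06e-05 and 0.000161). HSP90AB1 rose by 0.28 and 0.20, and PTGES3, the p23 co-chaperone, by 0.42 and 0.23. The coactivator NCOA1, in contrast, changed by -0.56 ± 0.0646 and -0.65 ± 0.0799 (adjusted p = 2.43e-06 and 3.33e-05). At medium EESF NCOA1 and NCOA2, a related coactivator, were called at -0.23 and -0.27 (adjusted p = 0.0296 and 0.0459), 2 of 10 beside 12.5% of all genes. The extracts differed for 2 of 10, PTGES3 by -0.18 and the ubiquitin ligase scaffold CUL4B by -0.28 (adjusted p = 0.0363 and 0.0176), beside 21.2% of all genes.

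Of 15 other reported AHR targets 13 were tested, and 8 rose and 3 fell with high WESF (median 0.42), 6 and 1 with high EESF (median 0.23). Thus 11 of 13 were called beside 63.5% of all genes, and 7 of 13, near the background, beside 52.5%. CYP1A2, the third member of the CYP1 family, had 0 counts in all 24 libraries, which allows up to 0.16 CPM in the shallowest. IL1B, a cytokine with many other inducers, went from 3.31 ± 0.434 to 25.9 ± 0.824 CPM with WESF (2.97 ± 0.0876, adjusted p = 1.71e-12) and from 4.08 ± 0.375 to 20 ± 0.423 with EESF (2.29 ± 0.0888, adjusted p = 9.11e-09). SLC7A5, the transporter of large neutral amino acids and of kynurenine, rose by 1.05 ± 0.0461 and 0.63 ± 0.0644. CYP2S1, a P450 of epithelia, rose by 0.69 ± 0.071 and 0.88 ± 0.0661, and STC2, a secreted glycoprotein, by 0.46 and 0.22. SLC7A5 and STC2 are also targets of the stress factor ATF4. NQO1, a target of NRF2 as well, changed by -0.39 with high WESF (adjusted p = 1.64e-06) and 0.08 with high EESF (adjusted p = 0.219). The extracts differed for 6 of the 13 (EESF change less WESF change), beside 21.2% of all genes. The difference was above 0 for NQO1 (0.47, adjusted p = 0.000151) and HES1 (0.44, 0.0148), and below 0 for IL1B (-0.67, 0.00253), SLC7A5 (-0.42, 0.00218), STC2 (-0.23, 0.0106) and CDKN1B, an inhibitor of the cell cycle (-0.59, 0.000403). The carrier ABCG2 changed by -0.58 and -0.38. At the medium dose of EESF 3 of 13 rose and 0 fell, beside 12.5% of all genes called: CYP2S1, IL1B and NQO1, at 0.26, 0.44 and 0.23 (adjusted p = 0.036, 0.0375 and 0.00544). At that of WESF NQO1 rose by 0.22 (adjusted p = 0.0118) and HES1, a repressor of the Notch pathway, changed by -0.29 (adjusted p = 0.0181), 2 of 13 called beside 2.71%.

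**Figure D3:**
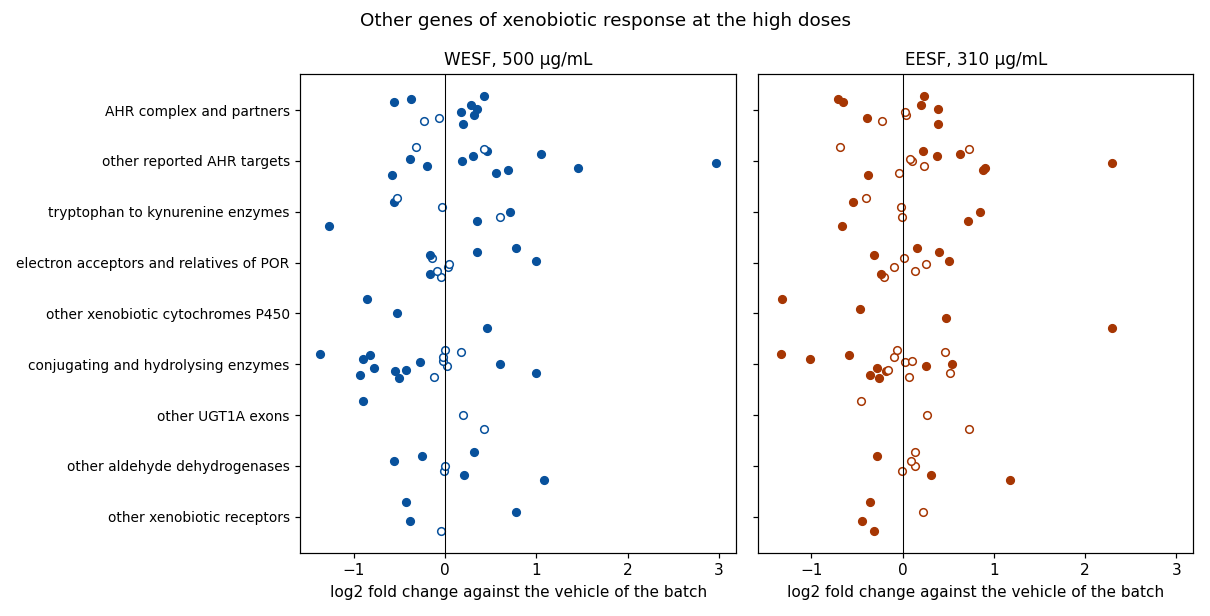
Log2 fold change (x axis, the same scale in both panels) of the tested genes of each list at the high dose of WESF (left) and of EESF (right) against the vehicle of the batch; each point is a gene, filled where the adjusted p was under 0.05. Most lists hold genes on both sides of 0. Of the conjugating and hydrolysing enzymes 9 of 17 fell with WESF and 7 of 17 with EESF, beside 31.9% and 26.5% of all genes. The point at the far right of the AHR targets is IL1B. The filled point at 2.29 among the P450 enzymes with EESF is CYP2E1. It passed the filter on low counts only where the treated group was high, and no test is read from it.

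Enzymes that make or remove AHR ligands from tryptophan were mostly low. Of 10, 7 were tested, and 2 rose and 2 fell at either high dose (medians -0.04 and -0.02), a share of 4 of 7 near the background of 63.5% and 52.5%. KYAT1 rose by 0.71 ± 0.0889 and 0.85 ± 0.0859 and AFMID, which frees kynurenine, by 0.35 and 0.72. AADAT, which turns kynurenine into kynurenic acid, changed by -1.27 ± 0.12 with WESF and -0.67 ± 0.12 with EESF. The extracts differed for 2 of the 7, AADAT by 0.62 and AFMID by 0.38 (adjusted p = 0.0097 and 0.0472), beside 21.2% of all genes. At low EESF 2 of 7 rose, beside 7.15% of all genes called, AFMID by 0.55 and KYAT1 by 0.35 (adjusted p = 0.00755 and 0.0401), and at medium EESF AFMID alone, by 0.48 (adjusted p = 0.00771), beside 12.5%. KYNU had -0.56 and -0.55 (adjusted p = 0.0274 and 0.0325). IDO1 and IDO2 had 0 to 10 and 0 to 1 counts in a library.

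Among 10 partners and relatives of POR, all tested, 3 rose and 2 fell at each high dose (medians -0.01 and 0.08), that is 5 of 10 called where 63.5% and 52.5% of all genes were. HMOX1, haem oxygenase, which takes its electrons from POR, went from 55.5 ± 1.22 to 109.8 ± 4.54 CPM with WESF (0.99 ± 0.046, adjusted p = 1.61e-10) and from 54.4 ± 4.91 to 77.5 ± 3.14 with EESF (0.51 ± 0.0691, adjusted p = 6.69e-05). SQLE, the POR-dependent epoxidase of sterol synthesis, rose by 0.77 and 0.16, NDOR1 by 0.35 and 0.40, and MTRR, which recharges methionine synthase, changed by -0.17 and -0.32. The rise was smaller with EESF for HMOX1 (-0.47, adjusted p = 0.00157) and SQLE (-0.60, adjusted p = 0.000152). The third of 10 genes for which the extracts differed, beside 21.2% of all genes, was CYB5R3, cytochrome b5 reductase, at 0.24 in the other direction (adjusted p = 0.0422), which was also the 1 gene of the list called at medium EESF (0.18, adjusted p = 0.0456).

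Other P450 enzymes of drug metabolism were nearly absent, with 3 of 13 tested at high WESF and 4 of 13 at high EESF, all of them called, beside 63.5% and 52.5% of all genes. CYP2R1, a vitamin D hydroxylase, rose by 0.46 and 0.48, while CYP2U1 changed by -0.53 and -0.47 and CYP3A5 by -0.86 and -1.32. CYP2E1, with 2 to 21 counts in a library, had 0.12 ± 0.0268 CPM in vehicle B and 0.607 ± 0.155 with high EESF. Among the doses set against a vehicle it passed the filter on low counts there alone, where the treated group was high, so no test is read from it, although it is 1 of the 4. Of 17 tested conjugating and hydrolysing enzymes, 2 rose and 9 fell with high WESF (median -0.28), and 2 rose and 7 fell with high EESF (median -0.10). The called share was 11 of 17 and 9 of 17, near the 63.5% and 52.5% of all genes, while those that fell stood beside 31.9% and 26.5%. EPHX1, microsomal epoxide hydrolase, went from 108.1 ± 4.81 to 56.4 ± 2.98 CPM with WESF (-0.93 ± 0.0511, adjusted p = 8.02e-10) and from 108.1 ± 7.45 to 84 ± 5.15 with EESF (-0.36 ± 0.0657, adjusted p = 0.000657). GSTK1, a glutathione transferase, changed by -0.55 and -0.18, the carboxylesterase CES2 by -0.51 and -0.26, and GSTO1 rose by 0.60 and 0.54. EPHX1, GSTM2, GSTK1 and CES2 fell further with WESF, by 0.58, 0.50, 0.38 and 0.26 (adjusted p = 0.000433, 0.0101, 0.00274 and 0.0115), 4 of 17 beside 21.2% of all genes. At the lower doses of EESF 2 of the 17 rose and 0 fell, beside 7.15% of all genes called at the low and 12.5% at the medium dose. They were GSTK1, with 0.19 and 0.15 (adjusted p = 0.0187 and 0.0365), and GSTM2, of the same superfamily, with 0.46 and 0.37 (adjusted p = 0.00807 and 0.00817), both of which were below their vehicle at the high dose.

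Beside ALDH3A1, 7 of 9 other aldehyde dehydrogenases were tested, of which 3 rose and 2 fell with WESF and 2 rose and 1 fell with EESF (medians 0.00 and 0.14). The 5 of 7 and 3 of 7 called compare with 63.5% and 52.5% of all genes. With the whole of batch B in 1 fit, 5 rather than 3 were called with EESF. ALDH1A3, which makes retinoic acid, was abundant and went from 588.8 ± 4.21 to 1243 ± 44.6 CPM with WESF (1.08 ± 0.0411, adjusted p = 2.09e-11) and from 585.7 ± 7.35 to 1327 ± 20.6 with EESF (1.18 ± 0.0463, adjusted p = 9.61e-09). It was also called at the medium doses, at 0.53 and 0.32 (adjusted p = 4.65e-06 and 0.000971). ALDH3B1, of the same family as ALDH3A1, changed by -0.56 with WESF and 0.09 with EESF (adjusted p = 4.93e-07 and 0.148), and the extracts differed by 0.66 (adjusted p = 8.98e-05). Below the high doses it rose, by 0.24 at medium WESF, 0.31 at medium EESF and 0.23 at low EESF (adjusted p = 0.0359, 0.0025 and 0.0111). ALDH9A1 rose by 0.31 with WESF and ALDH7A1 changed by -0.26 and -0.28. Of the other xenobiotic receptors and their partners, 4 of 7 were tested, and 1 rose and 2 fell with WESF, 0 and 3 with EESF, beside 63.5% and 52.5% of all genes called. NR1I2, the pregnane X receptor, had 0 to 2 counts. PPARA rose by 0.77 with WESF (adjusted p = 1.57e-07) and had 0.22 with EESF (adjusted p = 0.0587). RXRA, the dimer partner, changed by -0.43 and -0.36, and the corepressor NCOR1 by -0.05 (adjusted p = 0.432) and -0.31 (adjusted p = 0.00124). The extracts differed for PPARA by -0.54 and for NCOR1 by -0.26 (adjusted p = 0.00827 and 0.0429), 2 of 4 beside 21.2% of all genes. At medium EESF all 4 tested genes of this list fell, by 0.16 to 0.27 on the log2 scale (adjusted p between 0.00565 and 0.0487), beside 12.5% of all genes called, and at low EESF 2 of 4 fell, beside 7.15%.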

How the data were processed

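RNA from 24 libraries of SW1783 cells (8 groups of 3) was analysed. The authors trimmed reads with Trim Galore 0.6.6, aligned them with STAR 2.7.9a to GRCh38 and counted them with RSEM 1.3.3. The deposited values are the expected counts of RSEM for each gene, not normalized. RSEM divides reads between genes, and 10.9% of values were not whole. The library kit was directional, but whether RSEM used strand is not given in the sources used here. Symbols and positions came from GENCODE release 44 (56558 of 60675 genes matched).

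Expected counts were rounded, all genes of the table that passed filterByExpr were fitted with edgeR 4.0.16 (TMM, quasi-likelihood test, 2-sided, R 4.3.3) on the libraries compared, and p-values were adjusted by Benjamini-Hochberg over all genes tested. The study used DESeq2, run here as version 1.42.0 among the alternatives, which were DESeq2's test, its size factors, no filter, protein-coding genes only, a fit of the whole batch, a replicate block and leaving out each library. Tests were checked on counts simulated for high WESF against vehicle A. Far fewer genes were changed there than were called at the high doses, so that check does not cover changes as wide as these.

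The members and gene lists were chosen with earlier results of these data known. Of 124 list entries, 121 were found. Named genes were the members, up to 4 called genes a list with the smallest p at the high doses, and the 3 nearest patterns for 4 members; some of these genes are not reported here. NQO1, ABCG2, HES1, CDKN1B, CUL4B, CYB5R3, GSTM2, NCOA2, UGT1A7, CYP1A2, IDO1, IDO2, NR1I2 and VIM, and markers at low counts, were added after their values were seen.

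Same-numbered libraries were checked for shared deviations over 5980 genes. They deviated together in the 2 vehicle groups (r = 0.83, 0.533 and 0.778) and, only weakly, in medium and high EESF (0.101, 0.299 and 0.258). In no comparison of a dose with its vehicle did they do so.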

Additional observations from a re-analysis of the deposited data

Results flagged for a closer look

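The following 4 results were set apart because the change at the high dose differed between the extracts by a test of the difference itself (edgeR's interaction term, 12 libraries). The rise of TIPARP was smaller with EESF, a difference of -0.40 on the log2 scale (EESF change less WESF change, adjusted p = 0.00125). CYP1A1 differed by 1.05 in the other direction (adjusted p = 0.027), where vehicle B was itself lower than vehicle A in all 3 libraries. POR differed by 0.28 (adjusted p = 0.0204), with a rise in batch B and a decline that missed the threshold in batch A, and ARNT by -0.25 (adjusted p = 0.0323). In each case extract, dose and batch cannot be told apart.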

How the results depend on the processing

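Of the 11 changes of members called at the high doses, 9 were called in every alternative and 0 reversed; the exceptions were AHRR with WESF and POR with EESF. Members called at medium WESF numbered 1 rather than 0 without the filter on low counts (AHR, -0.20, adjusted p = 0.00462), and 0 to 1 when libraries were left out, as at medium EESF (0 to 1). For the difference between the extracts, 1 to 5 members were called when libraries were left out and 1 with the replicate block, which gave -0.25 for ARNT, 1.06 for CYP1A1 and 0.28 for POR (adjusted p = 0.0917, 0.0689 and 0.0609). Under the block the high dose of EESF kept 5 calls, and the vehicles differed in 374 genes rather than 0.

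Signs turned only for changes that were not called. With all libraries these lay between -0.10 and 0.08, except ALDH3A1 between the vehicles at 0.19. Without the filter, CYP1B1 at medium WESF was 0.00, and AHRR was 0.01 at medium EESF (also with protein-coding genes only) and 0.01 between high and medium EESF. Leaving out 1 library at a time gave, at medium WESF, -0.11 to 0.20 for CYP1A1 and -0.05 to 0.05 for CYP1B1. At low WESF it gave 0.00 to 0.10 for AHRR, -0.04 to 0.02 for TIPARP, -0.13 to 0.14 for CYP1A1, -0.02 to 0.08 for CYP1B1 and 0.00 to 0.09 for POR. In batch B it gave -0.06 to 0.03 for AHRR at the high dose, -0.19 to 0.00 for AHR and -0.04 to 0.03 for AHRR at the medium dose, and -0.12 to 0.07 for AHR, -0.07 to 0.02 for ARNT and -0.01 to 0.07 for POR at the low dose. Between high and medium doses it gave -0.07 to 0.01 for AHR (WESF), and -0.02 to 0.06 for ARNT and -0.05 to 0.05 for AHRR (EESF). Between the vehicles it gave -0.11 to 0.07 for AHR, -0.11 to 0.02 for CYP1B1, -0.08 to 0.46 for ALDH3A1 and -0.03 to 0.02 for POR. The cause was not tested.

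Counts of all genes called were less stable at the lower doses: 50 to 1266 at medium WESF, 0 to 76 at low WESF, 666 to 2752 at medium EESF and 173 to 2603 at low EESF, and down to 2172 for the difference between the extracts. CYP1A1 and ALDH3A1 had 12 to 100 counts in a library, which limits their precision, and UGT1A6 could not be tested.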
